A study of Arabidopsis thaliana with 8 samples.

Results

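The comparison described here set fip37L seedlings against wild type (WT) seedlings of Arabidopsis thaliana and covered 4 of the 8 libraries of the series, 2 of each genotype. It was chosen by genotype label alone. The quantity counted was the number of RNA-seq reads in a window of 500 bp placed just past the annotated 3′ end of each gene, so that RNA running beyond that end would add to it. All plants were of the Col-0 ecotype and were harvested as whole seedlings at an age of 9 days, and the libraries of cpsf30-3 and cpsf30-1 mutants entered only 1 alternative fit.

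The fip37L plants carried the fip37-4 mutation together with LEC1:FIP37, a transgene in which the embryonic LEC1 promoter drives FIP37, so that embryos survive and the protein is lost later. The line is therefore a model of reduced FIP37 after embryogenesis in pooled whole seedlings, and not of a complete or tissue-specific loss. According to the study's methods, the mutant material was grown on a richer medium with sucrose and collected under a microscope, whereas other plates held a more dilute medium. The medium of these WT seedlings is not given in the sources used here, and growth conditions and genotype cannot be told apart.

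FIP37 is the plant counterpart of the animal protein WTAP, a subunit of the complex that writes N6-methyladenosine (m6A) on mRNA together with the methyltransferases MTA and MTB. In Arabidopsis, m6A is concentrated near the ends of transcripts and is bound by proteins with a YTH domain, among them the long form of CPSF30, a subunit of the machinery that cleaves and polyadenylates pre-mRNA. When cleavage fails, RNA polymerase can run into the next gene, and a chimeric RNA of an upstream and a downstream gene can form. The question of the comparison was which genes have more or fewer reads past their annotated end when FIP37 is depleted.

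One window was used for each of 31109 genes, that of the lowest-numbered transcript model. These windows held 5173604 and 4777989 reads in WT replicates 1 and 2, and 6039296 and 4385181 reads in fip37L replicates 1 and 2. A floor of 3 reads corresponded to between 0.526 and 0.705 CPM, the reads of a window per 1000000 reads of the scaled library, in a single library, which covers counting error only. The fip37L replicates differed more from each other than the WT replicates, with a biological coefficient of variation of 21.2% against 6.28%. Neither the labels nor the methods state that replicates came from separate cultures, so p-values measure the spread between these libraries alone.

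The deposited counts did not differ between the strands everywhere. In 14 pairs of windows of genes on opposite strands that coincided over at least 490 bp and held at least 40 reads, the counts differed by a median of 0.05 on the log2 scale and by 6.69 at most. An example is the pair AT4G38290 and AT4G38300, with 46, 46, 60 and 40 reads in one window and 45, 46, 60 and 40 in the other, in the order WT replicates 1 and 2 and fip37L replicates 1 and 2 that is kept below. Other pairs differed widely, such as AT4G16510 and AT4G16520, with 221, 219, 277 and 161 reads against 3, 4, 0 and 1. Reads of a gene that lies inside a window may therefore enter some counts, also from the other strand, and whether they do so in a given window was not tested. For this reason each window was placed on the TAIR10.1 assembly with the RefSeq annotation and sorted by whether it held no other gene, a gene on the same strand, or genes on the other strand alone. In 5 pairs placed in the same way but on the same strand, counts differed by a median of 0.01 on the log2 scale and by 9.35 at most. AT3G19595 and AT3G19600, placed over the same 500 bp, held 121, 119, 51 and 34 reads against 0, 0, 0 and 0. The sorting rests on the placement, and whether placed windows match those counted was not tested, for pairs on the same or on opposite strands.

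The window of FIP37 itself held 56 and 37 reads in WT and 149 and 105 in fip37L. Both fip37L libraries were above both WT libraries, with a log2 difference of 1.49 ± 0.22 (SE, n = 2 against 2, adjusted p = 0.0131 by edgeR's quasi-likelihood test with Benjamini-Hochberg adjustment). Without WT replicate 2 the adjusted p was 0.0750. The window lies at chr3:20059584-20060083 on the plus strand, past the gene's end, and overlaps the cell-cycle kinase gene CDKB1;1 over 413 bp, so its count does not check the mutation.

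More windows rose than fell in fip37L. Of 11400 windows with enough reads to be tested, 666 were higher in fip37L and 270 were lower (at least 2-fold, adjusted p below 0.05, edgeR), which is 5.84% and 2.37% of those tested. Rises were also larger, with a median log2 change of 1.88 in size against 1.47 for falls. Changes of at least 4-fold were found in 296 risen and 67 fallen windows, and changes of at least 16-fold in 63 and 10. The windows that rose had been poor in reads, at a median of 2.77 CPM in WT and 10.6 CPM in fip37L, while those that fell started from 15.1 CPM and reached 5.45 CPM. The median window of all those tested held 13.6 CPM in WT and did not shift, with a log2 difference of 0.0065.

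In all 936 called windows both fip37L libraries lay on one side of both WT libraries, but so did 62.8% of all tested windows. In 24 rises (3.604%) the fip37L replicates were more than 3-fold apart, and replicate 1 was the higher in all 24. Such a gap between the fip37L replicates was found in 198 of all tested windows (1.737%) and in 1 fall. Whether these shares differ was not tested. The counts of calls changed when 1 library was left out, a fit in which the pair of the other group alone sets the spread. Fewer windows were called without either WT library, where the fip37L pair sets it, and more without either fip37L library, where the WT pair does.

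**Figure D1:**
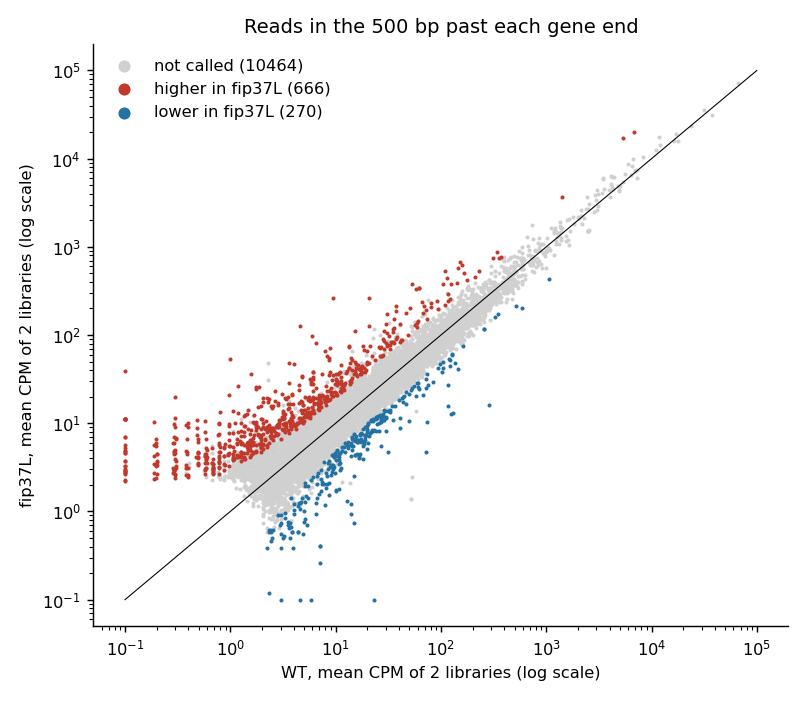
Mean CPM of the 2 fip37L libraries (vertical, log scale) against the mean CPM of the 2 WT libraries (horizontal, log scale), 1 point per tested window, with the line of equal levels. The 666 windows called higher in fip37L spread over the low WT levels at a median of 2.77 CPM, and the 270 called lower lie around 15.1 CPM in WT.

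A set of genes was of particular interest because each is the upstream partner of a chimeric RNA found in nerd-1, a mutant of the RNA-silencing factor NERD. These genes were listed from nerd-1 libraries that are not among those analysed here, but the study went on to describe several of them in fip37L, so the list is not independent evidence of its direction. The following stretches show, for 6 of them, where the gene ends in the RefSeq annotation and the window placed from it begins. The last 15 bases of the gene are in lower case and the first 15 bases of the window in capitals, both read along the gene's own strand from TAIR10.1.
ARI5, chr1:1784661-1784690, plus strand: tttccaagaagttagTGGCTGGTGTGTCAT
GDPD4, chr1:26885155-26885184, minus strand: gtctgtttatataatATGGATAGAGAACGA
AT2G21440, chr2:9173369-9173398, minus strand: gttccaaaccgtccgATTTTTTCGATTTCG
AT3G47890, chr3:17666912-17666941, minus strand: aaagtaatcttggccAAATCATTGTCACAT
ATS2, chr4:14932090-14932119, minus strand: tgtgttctcagtgaaACTGAAGCAATATAT
AT5G07630, chr5:2414697-2414726, plus strand: atttttgtttttggtAATGGTTGAATCATT

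Past the end of AT2G21440, which encodes an RNA-binding protein, 10 and 9 reads were counted in WT and 87 and 65 in fip37L. The groups were far apart and the replicates close, giving a log2 difference of 3.03 ± 0.26 (SE, adjusted p = 0.00444). The 500 bp of this window lie wholly inside AT2G21430, a papain family cysteine protease gene on the same strand. Past ARI5 (AT1G05890), a RING-type protein gene followed by AT1G05894, the counts were 7 and 7 against 80 and 45. Both fip37L libraries exceeded WT, with a log2 difference of 3.16 ± 0.33 (adjusted p = 0.00595). The window of a second ARI5 model, which ends further upstream, held 45, 45, 96 and 46 reads, and there fip37L replicate 2 was level with WT in reads (log2 0.67 ± 0.27, adjusted p = 0.142).

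AT5G07630, annotated as a lipid transporter gene and followed by the RING gene AT5G07640, went from 15 and 17 reads in WT to 113 and 98 in fip37L. Both fip37L libraries were several times higher than either WT library (log2 2.77 ± 0.24, adjusted p = 0.00409). GDPD4 (AT1G71340), a phosphodiesterase gene upstream of the ABC protein gene NAP5, had 19 and 27 reads against 100 and 71. Here too the groups did not overlap, and the log2 difference was 1.93 ± 0.26 (adjusted p = 0.0105).

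The 2 remaining loci of the 6 passed the test less firmly. ATS2 (AT4G30580), which encodes a plastid acyltransferase of glycerolipid synthesis, had 19 and 25 reads in WT and 56 and 45 in fip37L (log2 1.24 ± 0.28, adjusted p = 0.0357). That call was lost without either WT library and with DESeq2, where the adjusted p was 0.0957. AT3G47890, a ubiquitin hydrolase-related gene, had 3 and 5 reads against 49 and 12, so that most of its rise lay in fip37L replicate 1 (log2 2.89 ± 0.69, adjusted p = 0.0408). The call was lost without fip37L replicate 1 and without either WT library.

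Of the 37 genes on the nerd-1 list, 29 had a testable window. Among these, 18 rose and none fell in edgeR, beside 5.84% and 2.37% of all tested windows. Their median log2 difference was 1.87 beside 0.0065 over all tested windows. Members with very few WT reads, such as AT3G63340 (0 and 2 against 23 and 21), could pass the read filter only by being higher in fip37L. The lack of falls and the median are therefore partly set by the filter. At an unadjusted p below 0.05, 24 were higher and 0 lower, and DESeq2 called 12 higher and 0 lower. Most of the 29 have another gene on the same strand in the window. RPL9 (AT3G44890), which encodes a plastid ribosomal protein and precedes the cation exchanger gene CHX4 (AT3G44900), had 4 and 4 reads against 64 and 37. HDS (AT5G60600), an enzyme of plastid isoprenoid synthesis, had 0 and 3 reads against 51 and 19. SBT3.5 (AT1G32940), a subtilase gene, had 1 and 2 reads against 30 and 20. In each of these 3 both fip37L libraries were above WT, with log2 differences of 3.64, 4.44 and 3.99. TEJ (AT2G31870), YSL5 (AT3G17650) and MOS6 (AT4G02150) rose less, by 1.19, 1.28 and 2.12 on the log2 scale.

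The members not called included windows that hardly moved. TOM2B (AT1G32370) had 135 and 125 reads in WT and 151 and 109 in fip37L (log2 0.04), and AT5G47660 had 48 and 50 against 58 and 47 (log2 0.15). In CPM the libraries of both groups ran close together in these 2 windows. The other 9 uncalled members had log2 differences between 0.33 and 2.27. Every one of the 29 genes has an annotated 3′ UTR, and in 8 of them a longer model of the same gene reached at least 10 bp into the window, 4 of which rose. Without WT replicate 1 the count of 18 became 11, and without WT replicate 2 it became 9.

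A second list of 17 upstream genes for the same mutant gave 11 testable windows, of which 6 rose and none fell (median log2 1.89), or 7 and 0 at an unadjusted p below 0.05 and 3 and 0 with DESeq2. UBP13 (AT3G11910), a ubiquitin protease gene, had 5 and 5 reads in WT and 61 and 34 in fip37L (log2 3.24). A longer model of UBP13 covers 330 bp of its window, which also faces AT3G11900, so these reads need not lie past the gene's end. RAP74 (AT4G12610), a subunit of the general transcription factor TFIIF, had 5 and 4 reads against 29 and 24 (log2 2.57). Both groups were clearly apart in these 2 windows, and that of RAP74 holds no other gene. With so few WT reads, both could pass the read filter only by being higher in fip37L. AT5G19900 had the lowest difference of the 11, at 26 and 38 against 37 and 11 reads (log2 -0.42), and its groups overlapped.

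**Figure D2:**
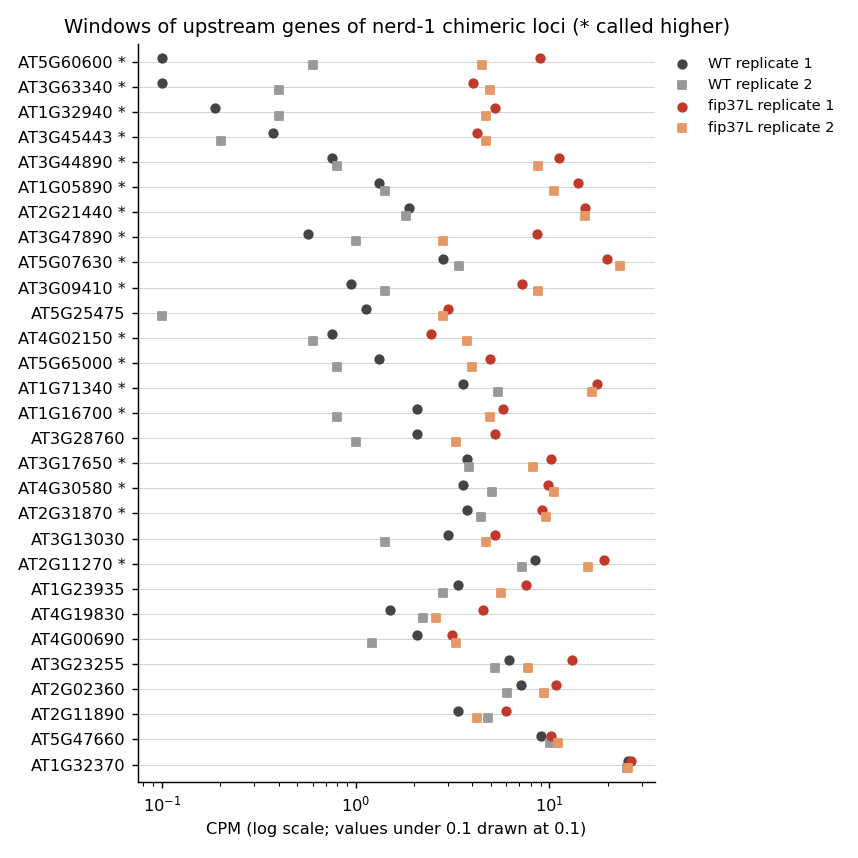
CPM in each library (horizontal, log scale, with values under 0.1 drawn at 0.1) for the 29 tested windows of upstream genes of nerd-1 chimeric loci, sorted by log2 difference, with 1 symbol per library. The 18 starred windows were called higher in fip37L, and the libraries run together at the bottom, at TOM2B (AT1G32370), with a log2 difference of 0.04.

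What lay in the window went with how often it changed. Of 1143 windows that held no other annotated gene, 115 rose and 43 fell, which is 10.1% and 3.76%. With a gene on the same strand, 227 of 3669 rose (6.19%) and 56 fell (1.53%). With a gene on the opposite strand only, 318 of 6492 rose (4.90%) and 170 fell (2.62%). These last windows took between 71.9% and 73.7% of all window reads in each library, and those with no other gene between 6.43% and 8.21%.

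The order of the shares depended on the depth of the windows. Among windows that averaged 20 reads or more in WT, a cutoff added after seeing the data, those with no other gene rose in 4.09% and fell in 6.30% of 587 cases. The shares were then 2.70% and 1.80% of 2777 windows with a same-strand gene, and 3.13% and 2.74% of 5586 with an opposite-strand gene only. Genes with an annotated 3′ UTR and no longer model of their own, another cutoff added after seeing the data, gave 9.53% rises and 4.57% falls in 766 windows with no other gene.

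**Figure D3:**
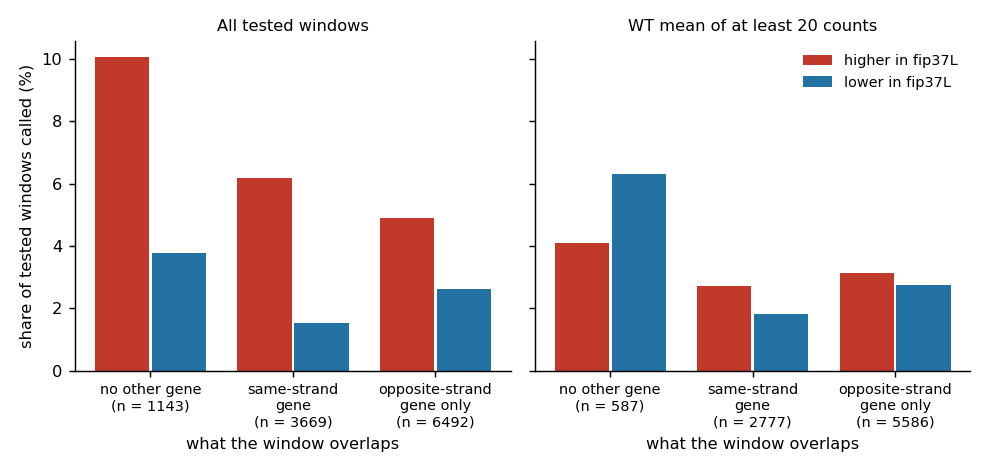
Share of tested windows called higher or lower in fip37L (vertical, %) by what RefSeq places in the window, for all tested windows (left) and for those that averaged 20 or more reads in WT (right). Windows with no other gene had the tallest bar of rises on the left, at 10.1%, and more falls than rises on the right, at 6.30% against 4.09%.

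In windows with no other gene, no annotated neighbour lies inside the window as placed. Some of them nevertheless held the same counts as other windows, as described below, so they are not free of shared reads. The 5 such genes with the largest rises among those with at least 3 reads in every WT library are shown where gene and placed window meet. The last 15 gene bases are in lower case and the first 15 window bases in capitals (TAIR10.1, along the gene's strand).
AT5G51180, chr5:20801465-20801494, plus strand: aggtttcgtagctagCTTCTTGGGTTGGAG
MET18, chr5:19507382-19507411, minus strand: aatagacatataaccGTCATGTCTTATATC
AT4G03540, chr4:1571723-1571752, plus strand: gtatcgcaaaccggcCTGTCTTAAATGGAC
AT2G38250, chr2:16020142-16020171, plus strand: gcgtttcttatccacATAAATTTGTTTTAC
AT5G03090, chr5:725948-725977, plus strand: ggaaaaataatttgaAGTGGGAGAGAAAAG

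AT5G51180, which encodes an alpha/beta-hydrolase, had 4 and 6 reads in WT and 132 and 81 in fip37L. Both fip37L libraries were more than an order of magnitude above WT, with a log2 difference of 4.41 ± 0.31 (adjusted p = 0.00308). MET18 (AT5G48120), which encodes an ARM repeat protein of the cytosolic iron-sulfur cluster machinery, had 3 and 3 reads against 41 and 26. The WT replicates were equal and fip37L was higher by 3.46 ± 0.39 on the log2 scale (adjusted p = 0.00729). AT2G38250, a homeodomain-like gene, had 9 and 6 reads against 69 and 56, and the difference was 3.09 ± 0.31 (adjusted p = 0.00541).

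For AT4G03540, a gene of the UPF0497 family, 9 and 5 reads in WT stood against 55 and 61 in fip37L (log2 3.10 ± 0.39, adjusted p = 0.00933). For AT5G03090 the counts were 14 and 7 against 91 and 81 (log2 3.08 ± 0.32, adjusted p = 0.00595). Neither gene's groups overlapped. The model of AT5G03090 has no annotated 3′ UTR, so its window as placed starts at the stop codon and includes whatever UTR the gene has.

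Some other risen windows with no other gene belonged to well-known genes. RD26 (AT4G27410), a NAC factor induced by drought and abscisic acid, had 78 and 80 reads in WT and 1040 and 172 in fip37L (log2 2.86 ± 0.66, adjusted p = 0.0367). The WT replicates were nearly equal, while fip37L replicate 1 stood far above replicate 2. HSFA7A (AT3G51910), a heat shock transcription factor, had 20 and 16 reads against 117 and 36, again highest in fip37L replicate 1 (log2 2.07). PAB2 (AT4G34110), a poly(A)-binding protein gene, had 10 and 4 reads against 41 and 48, and here fip37L replicate 2 was the higher (log2 2.73). NIT2 (AT3G44300), a nitrilase gene, rose from 471 and 463 reads to 1243 and 1123 with little spread in either group (log2 1.40 ± 0.13). These 4 genes were picked after their values were seen.

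Altogether, 11 risen windows held no read in either WT library, and 4 of them are described here. AT5G45630, a gene of the senescence regulator family, had 404 and 35 reads in fip37L, at least 135-fold above a floor of 3 reads over both WT libraries, although the replicates were more than 3-fold apart. AT5G11500, a coiled-coil protein gene, had 33 and 35 reads, at least 24.0-fold above that floor. AT1G34440 had 30 and 26 reads (at least 19.5-fold) and AT5G61970, annotated as related to the signal recognition particle, had 22 and 28 (at least 17.9-fold). The window of AT5G11500 lies over 491 bp in MYB3R-4, a cell-cycle MYB gene on the same strand, and past the end of the gene's last model the log2 difference was -0.46 ± 0.12 (adjusted p = 0.0511) instead.

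Where a gene on the same strand lies in the window, the 5 largest rises with at least 3 reads in every WT library were those of EMB2296, EMB2744, NAC044, OMT1 and FEY. EMB2296 (AT2G18020), a cytosolic ribosomal protein gene of the L2 family, had 6 and 10 reads in WT and 237 and 133 in fip37L (log2 4.53 ± 0.31, adjusted p = 0.00308). EMB2744 (AT5G39680), a pentatricopeptide repeat gene, had 5 and 7 reads against 172 and 95 (log2 4.47 ± 0.32). Both fip37L libraries were far above WT in these windows. That of EMB2744 also lies wholly in the calcium-binding gene AT5G39670 on the other strand.

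NAC044 (AT3G01600), a NAC factor gene followed by CDC48C, had 9 and 9 reads against 107 and 139, one of the rises in which fip37L replicate 2 was the higher (log2 3.84 ± 0.38). FEY (AT4G27760), a gene needed for leaf positioning and meristem development, is followed by the MIR828 precursor and had 7 and 4 reads against 81 and 57 (log2 3.66 ± 0.33). OMT1 (AT5G54160), an O-methyltransferase gene of phenylpropanoid metabolism, had 8 and 10 reads against 206 and 52 (log2 3.79 ± 0.61). The window of OMT1 coincides almost wholly with that of the facing gene AT5G54170, which held 9, 10, 218 and 55 reads, so both are 1 observation and not 2.

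Some risen windows were followed by a gene whose own window rose too. Whether the same RNA ran through both was not tested, and windows that repeat one another's counts, described below, were not removed. Among the 227 risen windows with a same-strand gene, the downstream gene's own window could be tested in 99, and 23 of these rose as well (23.2%), against 6.86% of 1778 such pairs among all tested windows. Windows that ran into an annotated pseudogene rose in 11 of 58 cases (19.0%), those that ran into a protein-coding gene in 177 of 3108 (5.70%), and those that ran into a noncoding gene in 39 of 503 (7.75%). FBP (AT1G43670), the cytosolic fructose-bisphosphatase of sucrose synthesis, precedes the pseudogene AT1G43675 and had 45 and 43 reads in WT and 340 and 189 in fip37L. Its groups were well apart, at a log2 difference of 2.60 ± 0.21 (adjusted p = 0.00374). PSAK (AT1G30380), a photosystem I subunit gene that precedes AT1G30390, rose from 17 and 16 reads to 53 and 42 (log2 1.57 ± 0.27). These shares are descriptions of groups formed after the calls were known.

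Among windows whose only other gene lies on the opposite strand, the 3 largest rises with at least 3 reads in every WT library were those of AT1G60200, AT1G80850 and AT4G23800. AT1G60200, a splicing factor gene, faces PUB19, a ubiquitin ligase gene induced by drought, and its window held 48 and 49 reads in WT and 2577 and 324 in fip37L (log2 4.81 ± 0.85, adjusted p = 0.0194). AT1G80850 faces WRKY40 and had 18 and 29 reads against 1123 and 242 (log2 4.79 ± 0.67, adjusted p = 0.0121). AT4G23800 faces WRKY53 and had 31 and 30 reads against 903 and 160 (log2 4.05 ± 0.70, adjusted p = 0.0191). In each of the 3, both fip37L libraries exceeded WT and replicate 1 was several times higher than replicate 2.

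The facing genes were examined with a list of 31 genes of the rapid response to stress and wounding, such as WRKY factors and calcium-responsive genes. This list was chosen with earlier results of these data known. Its counts therefore describe these windows and are not independent evidence. Windows of other genes that faced a member rose in 5 of 6 tested cases, with a median log2 difference of 3.90, beside 4.90% of all windows with an opposite-strand gene only. Besides those facing WRKY40 and WRKY53, they faced WRKY33 (AT2G38480, 96 and 117 reads in WT and 2339 and 509 in fip37L), the mitochondrial carrier gene DIC2 (AT4G24580, 13 and 24 against 394 and 120) and ERF109 (AT4G34412, 3 and 0 against 54 and 10). The window of AT4G34412 also holds a gene on the same strand, so it belongs to the class in which 6.19% rose. With 3 and 0 reads in WT it could pass the read filter only by being higher in fip37L. The exception to the rises faced the receptor kinase gene FRK1 (AT2G19180, 8 and 15 against 20 and 13 reads). Over the whole WRKY family, 3 of 14 facing windows rose and 2 fell, among them that of AT4G11080, which faces WRKY41 (71 and 75 against 35 and 21 reads, log2 -1.35). Summed over 9 windows that overlap a list member, reads were 169 and 219 in WT and 4839 and 1060 in fip37L, again with replicate 1 highest.

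Among the windows past the ends of the stress genes themselves, only 10 of 31 had enough reads to be tested, and none of these gave a rise that passed. Of the 10 tested, none rose and 2 fell in edgeR, with a median log2 difference of 0.15. Windows left untested included those of ERF98 (0 and 0 reads in WT, 84 and 5 in fip37L) and TCH3 (0 and 0 against 37 and 4). Others were those of CML37 (0 and 1 against 0 and 0), TCH4 (3 and 0 against 2 and 2) and ZAT12, with no read. Whether the untested windows changed is therefore not known. At an unadjusted p below 0.05, 3 were higher and 4 lower, and DESeq2 called 0 higher and 1 lower. WRKY53 (AT4G23810) had 698 and 697 reads in WT and 271 and 210 in fip37L (log2 -1.49), and WRKY18 (AT4G31800) had 24 and 21 against 5 and 6 (log2 -1.96). Both were lower in each fip37L library. The part of reads from the stress genes themselves in these facing windows was not tested, and in whole seedlings a change in the number of cells of a type and one in RNA per cell cannot be told apart.

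Windows facing a heat shock protein or factor gene, a family formed after the calls were known, rose in 7 of 40 tested cases (17.5%), beside 4.90% of all windows with an opposite-strand gene only. Windows past heat shock genes themselves rose in 10 of 61 (16.4%) and fell in 2, beside 5.84% and 2.37% of all tested windows. The largest of the 7 was that of SRC2 (AT1G09070), which faces the chaperone gene BIP3 and had 4 and 0 reads in WT and 55 and 41 in fip37L (log2 4.55 ± 0.64). AT1G74300, which faces the disaggregase gene HSP101, had 85 and 96 reads in WT and 308 and 147 in fip37L (log2 1.33), and AT5G52650, which faces HSP90.1, had 45 and 68 against 294 and 103 (log2 1.79). In these 3 windows, fip37L replicate 1 was the highest library in reads. HSFA2 (AT2G26150), the heat shock factor of acclimation, had 2 and 3 reads past its end in WT and 40 and 9 in fip37L (log2 3.23 ± 0.78), and it faces AT2G26160, whose own window held 2 and 3 against 26 and 9. With so few WT reads, the windows of SRC2, HSFA2 and AT2G26160 could pass the read filter only by being higher in fip37L. Both shares of rises are therefore partly set by the filter. They are also not separate, since the risen window of AT5G02480 counts in both.

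**Figure D4:**
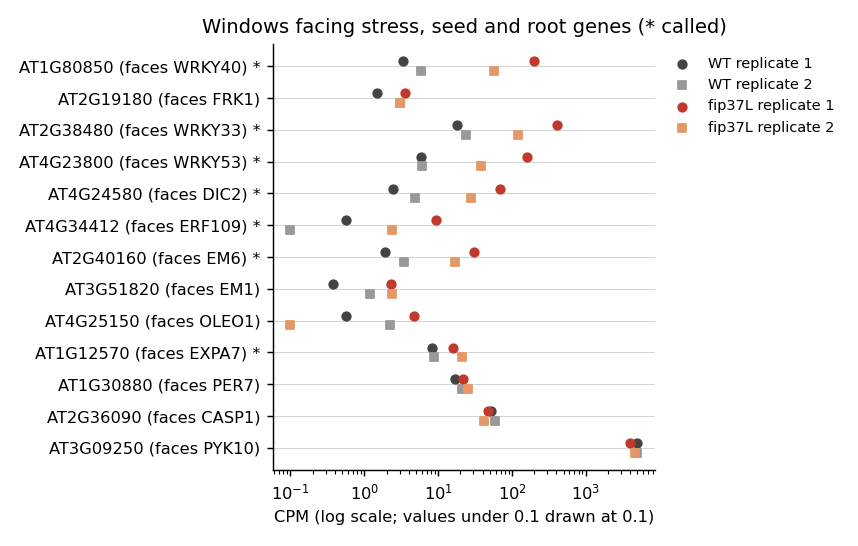
CPM in each library (horizontal, log scale, values under 0.1 drawn at 0.1) for tested windows that face a gene of the rapid stress, seed or root list, with 1 symbol per library. The starred windows facing WRKY40, WRKY33, WRKY53, DIC2 and ERF109 have both fip37L libraries to the right of WT, with replicate 1 furthest, while that facing PYK10 held 26530 and 24111 reads in WT and 22633 and 19940 in fip37L and was not called.

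Markers of organs and stages were read in the same way. Of the windows facing a seed storage or embryo gene, 1 of 3 rose, beside 4.90% of all windows with an opposite-strand gene only. It was that of AT2G40160, which faces the late embryogenesis gene EM6 (10 and 17 reads in WT, 173 and 71 in fip37L, log2 3.16). The windows facing EM1 (2 and 6 against 13 and 10) and OLEO1 (3 and 11 against 27 and 0) were not called. The summed reads of the 4 windows overlapping a gene of that list were 20 and 37 in WT and 220 and 91 in fip37L. Most of these fip37L reads were those of AT2G40160 alone, so the sum is not a rise of the list. Past the end of the root hair expansin gene EXPA7 (AT1G12560), reads fell from 40 and 27 to 5 and 7 (log2 -2.40), the only call among 6 root genes, while the facing window of AT1G12570 rose from 44 and 44 to 90 and 90 (log2 1.1). Windows overlapping root genes took 0.522% and 0.515% of reads in WT and 0.384% and 0.464% in fip37L. Windows overlapping leaf photosynthesis genes took 12% of reads in both WT libraries and 12% and 11% in fip37L. The leaf genes' own windows took 20170 and 22410 reads per 1000000 in WT and 17300 and 16450 in fip37L. The part of any organ or stage in the calls was not tested.

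Windows past genes that write, bind or remove m6A were rarely called. Of 8 writer and eraser genes 5 could be tested, and that of FIP37 was the only one called. The methyltransferase gene MTA (AT4G10760) had 515 and 452 reads in WT and 593 and 458 in fip37L (log2 0.17 ± 0.11), and MTB (AT4G09980) had 74 and 81 against 54 and 71 (log2 -0.23 ± 0.29). Of 12 YTH domain genes 7 were tested and none was called by edgeR or DESeq2, while 2 were higher and 1 lower at an unadjusted p below 0.05. ECT7 (AT1G48110) came closest, with 221 and 208 reads against 514 and 304, an adjusted p of 0.0143 and a log2 difference of 0.95 ± 0.15 that stayed under 2-fold. The window of CPSF30 (AT1G30460) held 1, 1, 3 and 0 reads and was not tested.

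None of the 15 tested windows past genes of the cleavage and polyadenylation machinery, out of 25 listed, was called by edgeR or DESeq2 or had an unadjusted p below 0.05, and their median log2 difference was 0.05. PAPS1 (AT1G17980), a poly(A) polymerase gene, had 159 and 134 reads in WT and 180 and 88 in fip37L (log2 -0.12 ± 0.23). FPA (AT2G43410), an RNA-binding protein gene known for its effect on 3′ end choice, had 148 and 127 against 184 and 107 (log2 0.11 ± 0.18). The fip37L replicates fell on either side of WT in reads for both genes. The windows of PAB4 (AT2G23350) and PHYB (AT2G18790) held at most 3 reads in any library and were not tested.

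Among falls in windows with no other gene and at least 3 reads in every library, the largest 3 were those of AT4G22510 and its neighbour AT4G22530, and of AT4G11320 elsewhere on chromosome 4. Their ends are shown as above, with the placed window in capitals (TAIR10.1, along the gene's strand).
AT4G22510, chr4:11854794-11854823, minus strand: aggagtgtgagttgtATTAGGGTTGGAGGT
AT4G22530, chr4:11858429-11858458, minus strand: taaaaaataatgccaACTTTTCGGAAAATT
AT4G11320, chr4:6889865-6889894, plus strand: actttatttatcaatAATATATATAACATT

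AT4G22510 had 675 and 653 reads past its end in WT and 96 and 40 in fip37L. Both fip37L libraries were far lower, with a log2 difference of -3.27 ± 0.24 (adjusted p = 0.00319). AT4G22530, a methyltransferase-like gene, had 437 and 326 against 69 and 37 (log2 -2.81 ± 0.21, adjusted p = 0.00319). Of the 8 tested windows from AT4G22485 to AT4G22530, most of them past genes annotated as lipid-transfer or 2S albumin-like proteins, 7 fell. The others were those of AT4G22485 (617 and 663 against 90 and 41 reads), AT4G22490, AT4G22505, AT4G22513 (371 and 376 against 42 and 9) and AT4G22517, with log2 differences between -3.86 and -2.81.

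The falls did not go on past AT4G22530. AT4G22520, whose window comes next along the chromosome, had 180 and 173 reads in WT and 252 and 187 in fip37L (log2 0.36 ± 0.13, adjusted p = 0.110). ORP2A (AT4G22540), the next gene, had 27 and 37 against 89 and 76 and was called higher (log2 1.41 ± 0.25). Several of these windows lie in or across from another gene of the group, so the 7 falls are not independent of one another. Without either WT library 4 of the 7 calls were kept.

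**Figure D5:**
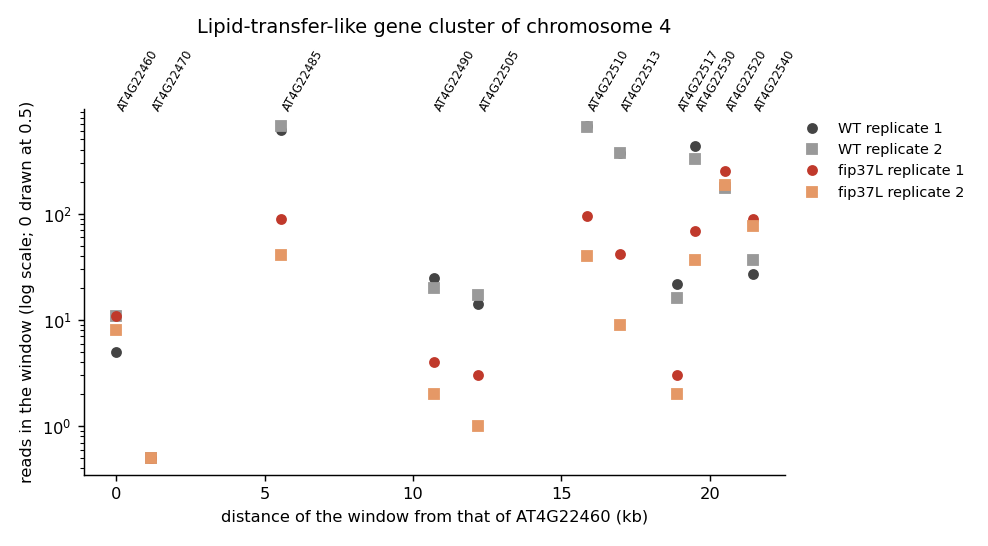
Reads in each window (vertical, log scale, with 0 drawn at 0.5) by distance from the window of AT4G22460 (horizontal, kb) for genes from AT4G22460 to AT4G22540, with 1 symbol per library. The fip37L symbols lie below those of WT in 7 windows, as in AT4G22510 with 675 and 653 against 96 and 40 reads, and not in AT4G22520 or ORP2A (AT4G22540).

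Large falls were also found in windows that hold another gene on the same strand. AT3G05725, a DUF3511 gene, had 1470 and 1455 reads in WT and 120 and 46 in fip37L, a log2 difference of -4.13 ± 0.28 (adjusted p = 0.00308), and AT3G05727, a small pollen coat protein-like gene that lies in that window, fell past its own end as well (45 and 29 against 3 and 0). Past CYP81F4 (AT4G37410), a cytochrome P450 gene of indole glucosinolate modification, reads went from 33 and 47 to 4 and 7 (log2 -2.78 ± 0.47), and past the next gene AT4G37420 from 29 and 44 to 2 and 2. CYP71A13 (AT2G30770), a P450 gene of camalexin synthesis, had 30 and 43 against 2 and 2 (log2 -4.07 ± 0.49) and faces AT2G30766, whose window fell too, from 77 and 78 to 7 and 1. In these windows every fip37L count was lower than every WT count. Past P450 genes as a family, 4 of 75 tested windows rose and 3 fell, with a median log2 difference of -0.02, and CYP72A7 (AT3G14610), for one, rose from 42 and 61 reads to 175 and 137 (log2 1.64). The CYP81F4 call was lost without WT replicate 2.

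AT4G11320, a papain family cysteine protease gene, had 59 and 45 reads in WT and 6 and 10 in fip37L (log2 -2.61 ± 0.40, adjusted p = 0.0143). AT3G26450, a polyketide cyclase-like gene, had 32 and 23 against 4 and 3 (log2 -2.88), and AT1G77540, an acyltransferase-like gene that faces an O-methyltransferase gene, had 85 and 59 against 4 and 5 (log2 -3.91 ± 0.38). The groups did not overlap in any of the 3 windows. Without WT replicate 1 the call of AT3G26450 was lost.

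Among major latex protein-like (MLP) genes 3 of 4 tested windows fell, all of them without another gene. Of all tested windows with no other gene, 3.76% fell. MLP328 (AT2G01520) had 174 and 67 reads in WT and none in fip37L, at least 76.8-fold lower against a floor of 3 reads over both fip37L libraries. Its neighbour MLP329 (AT2G01530) had 18 and 10 against 10 and 7 and was not called. MLP31 (AT1G70840) and MLP34 (AT1G70850) fell by 1.11 on the log2 scale each, but their windows held nearly the same reads, 1481, 1134, 832 and 379 in the first and 1483, 1138, 830 and 380 in the second. Their falls are therefore not separate observations, and the count of 3 of 4 overstates the family. AT1G31690, a copper amine oxidase gene, had 35 and 25 reads in WT and none in fip37L, at least 19.3-fold lower.

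Some other falls in windows with no other gene are given for genes that were picked after their values were seen. SPCH (AT5G53210), the factor that starts the stomatal lineage, had 47 and 42 reads in WT and 12 and 9 in fip37L (log2 -2.02 ± 0.29, adjusted p = 0.0129). PDF1 (AT2G42840), a gene of the epidermal cell layer, had 19 and 19 against 3 and 4 (log2 -2.35). CDC20.1 (AT4G33270), an activator of the anaphase-promoting complex, had 42 and 53 against 9 and 17 (log2 -1.79). In all 3, both fip37L libraries were below both WT libraries. PIN7 (AT1G23080), an auxin exporter gene, fell by 1.2 on the log2 scale and FRO7 (AT5G49740), a chloroplast ferric reductase gene, by 1.23.

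The rises richest in reads belonged to the small subunit of Rubisco, the enzyme that fixes carbon dioxide. RBCS2B (AT5G38420) had 38866 and 31703 reads in WT and 101780 and 93841 in fip37L (log2 1.54 ± 0.14, adjusted p = 0.00467). RBCS1B (AT5G38430) had 29657 and 25363 against 74705 and 89538 (log2 1.67 ± 0.22, adjusted p = 0.0101). Both fip37L libraries were higher in each. These genes are near-identical tandem copies whose reads the alignment could split, so their values are uncertain, and the window of RBCS3B (AT5G38410), past the last copy, held 0, 0, 0 and 2 reads.

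ZIP4 (AT1G10970), a zinc transporter gene, rose from 7581 and 6986 reads to 18497 and 17342 (log2 1.37 ± 0.13), in a window that faces the ferredoxin gene FD1 and follows a model with no annotated 3′ UTR. XDH1 (AT4G34890), a xanthine dehydrogenase gene of purine breakdown, rose from 1887 and 1618 to 5184 and 3532 (log2 1.35 ± 0.11). Among read-rich falls, AT1G22700, a tetratricopeptide repeat gene that faces a gibberellin-regulated gene, went from 3279 and 2839 to 1232 and 805 (log2 -1.55 ± 0.12). AT5G19150, a carbohydrate kinase-like gene, went from 5761 and 5123 to 2886 and 1476 (log2 -1.31 ± 0.18), but a longer model of the same gene covers the whole window. U2A′ (AT1G09760), a spliceosome component, and AT3G15830, a phosphatase-related gene, fell by 1.26 and 1.03 on the log2 scale.

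By gene family, formed from the annotation after the calls were known, the rises were spread widely. Windows past ribosomal protein genes rose in 18 of 186 cases (9.68%) and fell in 7. Those past protein kinase genes rose in 42 of 592 (7.09%) and fell in 10. Pentatricopeptide and tetratricopeptide repeat genes had 16 rises among 365 (4.38%) and 3 falls, and zinc finger genes had 11 among 195 (5.64%) and 1 fall. For light-harvesting and photosystem genes it was 3 rises among 58 (5.17%). Against 5.84% of all tested windows, none of these shares was set apart by a test.

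The bases before the annotated ends were searched for AATAAA, the canonical polyadenylation signal, within the last 50 bases of the gene on its own strand. It was present in 8.66% of 30620 placed windows, in 9.7% of the 11304 of these that were tested, in 9.09% of the 660 placed rises and in 13.0% of the 269 placed falls. None of the 29 tested genes of the nerd-1 list had it, whereas AT4G22530 did. The letters TGTA, within the last 100 bases, were found in 50.4% of all, 54.9% of tested, 53.5% of risen and 56.5% of fallen windows. A match is a description of these letters and not of a site in use.

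Some windows that do not overlap held the same counts. Of all tested windows within 50000 bp of one another, 157 pairs, made up of 88 windows in 24 runs, were equal within 1 read or 5% in every library although they shared no stretch of 25 bases. Between the glycine-rich protein genes GRP3S (AT2G05380) and GRP9 (AT2G05440), for example, the 6 windows of AT2G05390 to AT2G05435 held 1, 0 and 113 reads in the first 3 libraries and 11 or 12 in fip37L replicate 2, and all 6 were called higher. Whether a read aligned with a gap was counted in each window under the gap is not given in the sources used here, and this was not tested. Such runs included 8 of the rises and 4 of the falls. Of the 88 windows, 54 held no other gene, with 3 of these rises and 2 of these falls among them. When overlapping and repeated windows were joined, the 660 placed rises formed 625 groups and the 269 placed falls formed 260.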

How the data were processed

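Per the labels, polyadenylated RNA of 9-day-old seedlings was made into stranded libraries and sequenced as single-end reads. According to the study's methods and the submitters' processing notes, the authors removed organelle and ribosomal reads with Bowtie2 2.3.4, aligned the rest to TAIR10 with TopHat2 2.0.7 and used BEDTools to count those falling within 500 bp past each annotated 3′ end. The deposited values are raw counts per transcript model, with replicates kept separate. Windows followed the TAIR10 gtf annotation. The exact release is not given in the sources used here, so windows placed with RefSeq ends can differ from those counted. The study speaks of strand-specific read density for its nerd-1 windows, but how strand and alignment gaps were handled in these counts is not given in the sources used here.

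Of 39087 models, 38533 were placed on TAIR10.1 (RefSeq), 6 of them by gene ends only. The lowest-numbered model of each gene was kept. The 4 libraries were fitted with edgeR 4.0.16 (R 4.3.3, TMM scaling, filterByExpr, quasi-likelihood test, two-sided), and windows with a Benjamini-Hochberg adjusted p below 0.05 and at least a 2-fold change were called. CPM values use the TMM-scaled library sizes. On simulated data, 99.5% of 200 windows changed 4-fold were recovered, with 24 false calls among 11400. The simulation gave both groups the same spread and changed only windows that averaged at least 20 reads. Its rates therefore do not carry over to windows poor in reads or to the wider spread of the fip37L replicates. Alternatives were DESeq2 1.42.0, other scaling and filters, all 8 libraries, a replicate block, other transcript models and leaving out each library. Same-numbered WT and fip37L libraries did not deviate together (correlation of -0.030), so the numbers were not taken as pairs. Gene sequences came from the TAIR10.1 assembly.

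The genes named are the FIP37 and CPSF30 genes, loci of the study, called members of the lists, the largest changes by class (5 rises and 3 falls each, with at least 3 reads in every library of the lower group and a mean of at least 20 in the higher), windows at 0 in a group and the most read-rich calls. Genes said to be picked after their values were seen, those of heat shock, P450, WRKY, MLP, downstream pseudogene and neighbouring windows included, fall outside it. The comparison, lists and families were chosen with earlier results of these data known. Reads within gene bodies were not analysed here.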

Additional observations from a re-analysis of the deposited data

How the results depend on the processing

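No alternative turned a called window to a call in the other direction. Without the filter on low counts there were 1218 rises and 490 falls, by adjusted p alone 927 and 727 (56.0% of calls rises), and among only the windows with no other gene 53 and 24. Leaving out 1 library gave 205 to 1066 rises and 86 to 498 falls, with 1 library in an arm assumed to vary like the other group. For windows with no other gene, the share of rises was 4.02% with no filter and 4.09% at a WT mean of at least 20 reads, and that of falls was 2.1% with DESeq2, 1.68% with no filter and 6.3% at that mean. With a same-strand gene, 2.7% rose at that mean and 0.899% fell with DESeq2, and with an opposite-strand gene only, 3.13% rose at that mean. Leaving out 1 library left 9 to 22 rises on the nerd-1 list, 4 to 5 facing stress genes and 4 to 7 falls in the chromosome 4 group. DESeq2 gave 485 rises and 180 falls in all, and 12 on the nerd-1 list. Library size scaling moved the median log2 of all windows to -0.10 and gave 586 rises and 370 falls, so that 61.3% of calls were rises in place of 71.2%. The replicate block, for numbers that did not pair the libraries, gave 733 rises and 299 falls, of which 645 and 254 were shared with the fit without it, and changed no call of a named window. Of 503 comparisons over 45 named windows, 488 kept call and direction, 14 lost the call and 1 reversed, AT5G11500 past its last model (log2 -0.46). The lost calls were those of ARI5 and AT5G19150 with the last model, ATS2 with DESeq2, RBCS1B (adjusted p = 0.0517) in the fit of windows with no other gene, and AT3G15830, AT3G26450, AT3G47890, FIP37, ATS2 and CYP81F4 without a library. At 3 reads a window lies between 0.526 and 0.705 CPM, and changes below that were not detectable. The alternatives at a WT mean of 20 reads, by annotated UTR and those of the gene lists were chosen after seeing the data.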
